A study of Mus musculus with 19 samples.

Results

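The genes described here are 33 mouse genes of coagulation and fibrinolysis, found by their names among the 54838 rows of the table of liver RNA. All 33 had reads and all 33 passed the filter on low values, so they are among the 14743 genes tested. They were divided by where the protein is mainly made: 27 are secreted by hepatocytes, and 6 (F3, F8, Thbd, Tfpi, Plat and Plau) are made mainly by endothelial cells or are induced in other cells. The livers came from male C57BL/6JOlaHsd mice, which were 4 weeks old at the start and were kept for 4 months on a normal diet (ND, 13.9% of kcal from fat) or on a modified Western diet (WD, named a high fat diet in the sample labels, with 50.5% of kcal from fat and 1.25% cholesterol, besides sucrose, fructose and reduced choline). Each mouse carried a micro-osmotic pump for 8 weeks that delivered saline or AN1284, an indoline derivative, at 1 or 5 mg/kg/day; the sources differ on whether these weeks fell within the 4 months of diet. There were 3 livers of ND saline, 3 of ND AN1284 1 mg/kg/day, 3 of ND AN1284 5 mg/kg/day, 3 of WD saline, 4 of WD AN1284 1 mg/kg/day and 3 of WD AN1284 5 mg/kg/day. Every mouse, controls included, had a pump implanted, and no pump-free mice were analysed here.

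Blood clots when tissue factor (F3), exposed by damaged tissue, binds factor VII and starts a cascade of proteases that ends in thrombin, which cuts fibrinogen into fibrin. Antithrombin, protein C with its cofactor protein S, and tissue factor pathway inhibitor hold the cascade back, and plasmin, cut from plasminogen by the activators tPA (Plat) and uPA (Plau), dissolves the fibrin. The liver supplies most of these proteins to plasma, so their messages are among the most abundant of the hepatocyte, and a loss of clotting factors in blood is a classical sign of failing liver synthesis.

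The libraries held 23326800 to 32596067 counted reads. Values below are normalized counts, that is, read counts divided by the size factor of the library, which ran from 0.759 to 0.791 in ND saline and from 1.03 to 1.268 in WD saline. Fold changes are differences of log2(normalized count + 1) with their standard error (SE), tested in 1 limma model of all 6 groups, and an adjusted p under 0.05 after Benjamini-Hochberg adjustment over the 14743 genes was taken as passing. The liver label fits the markers: all 14 hepatocyte markers were read in all groups, with Alb at 1009981 to 2687966 normalized counts per liver. The ND saline livers stood apart from all others in heat shock genes, whose summed normalized count was 53842 to 61479 in ND saline and 24089 to 38589 in the other groups, and in the clock gene Nr1d1, at 135 to 464 against 1117 to 2676. The diet comparison was also made against the 6 ND livers given AN1284, a choice made after seeing the data. Fewer cells of a type and less RNA per cell cannot be told apart in whole liver.

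Among the members, levels per kilobase of exon in ND saline spanned from Plat and Plau at the bottom to the fibrinogen chains and vitronectin at the top. Fgg had a mean of 67300 normalized counts per kilobase, Fga 64500, Vtn (vitronectin) 45200, Fgb 43600 and Apoh (beta-2-glycoprotein I) 36800. The protease zymogens were lower, with prothrombin (F2) at 12300, F10 at 5270, F9 at 2400, F7 at 1390 and F11 at 902 normalized counts per kilobase. Pros1 (protein S), at 423, was the lowest of the 27 hepatocyte factors. The 6 endothelial and inducible genes lay below all of them, from Plat at 3.16 and Plau at 6.35 to Tfpi at 16.2, F8 at 18.5, F3 at 18.9 and Thbd at 25.8 normalized counts per kilobase. In reads, the 27 hepatocyte factors took 3.51 to 3.75% of the counted reads of ND saline livers and 2.07 to 2.6% in WD saline. The 6 other genes took 0.0013 to 0.00165% and 0.00445 to 0.00692% of the reads in the same groups.

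Several members lie side by side in the genome (GRCm38). Fgg (chr3:83007724-83015049), Fga (chr3:83026076-83033627) and Fgb (chr3:83040141-83049863) form 1 cluster, with 11026 and 6513 bases between them. F7 (chr8:13026034-13035809), F10 (chr8:13037308-13056676) and Proz (chr8:13060914-13076026) follow each other on the same strand, 1498 and 4237 bases apart. F11 (chr8:45241174-45262031) and Klkb1 (chr8:45266689-45294859) are 4657 bases apart. The kininogens Kng1 and Kng2 are close paralogs, so reads may have been divided between them and their values are uncertain. Serpind1 overlaps Pi4ka on the opposite strand, and F8, Plg, Apoh, Serpinc1, F5 and Fgg each overlap a gene on the opposite strand that had reads; the library kit keeps strand, but how strand was used in the counting is not given in the sources used here.

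To show the sequence in front of a gene cluster whose members fell together, the 250 bases before the start site are given for the 3 fibrinogen chains, and for Vtn, which had the largest fall on the WD among the abundant members. Sequences are from RefSeq (GRCm38.p6) in the direction of the gene, and capitals mark letters that match 1 of the 3 motifs searched on both strands. The motifs were CAAAGTC for HNF4, TTGCNNAA for C/EBP and CTGGGAA for the interleukin-6 responsive element, the first 2 being binding letters of liver transcription factors and the last those of acute phase induction. The letters GTTAAT for the liver factor HNF1 were also planned but were not searched, so they are not marked where they occur.
Fga (chr3:83025903-83026152, + strand): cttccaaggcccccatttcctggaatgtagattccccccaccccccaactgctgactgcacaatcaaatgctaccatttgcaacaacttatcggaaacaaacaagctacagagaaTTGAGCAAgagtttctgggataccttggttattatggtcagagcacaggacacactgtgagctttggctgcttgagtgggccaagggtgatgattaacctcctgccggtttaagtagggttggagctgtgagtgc
Fgb (chr3:83049864-83050113, - strand): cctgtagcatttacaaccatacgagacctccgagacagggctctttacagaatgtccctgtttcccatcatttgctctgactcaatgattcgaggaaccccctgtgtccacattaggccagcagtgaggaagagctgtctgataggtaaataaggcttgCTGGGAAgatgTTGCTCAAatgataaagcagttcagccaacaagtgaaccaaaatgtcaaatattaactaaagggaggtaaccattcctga
Fgg (chr3:83007474-83007723, + strand): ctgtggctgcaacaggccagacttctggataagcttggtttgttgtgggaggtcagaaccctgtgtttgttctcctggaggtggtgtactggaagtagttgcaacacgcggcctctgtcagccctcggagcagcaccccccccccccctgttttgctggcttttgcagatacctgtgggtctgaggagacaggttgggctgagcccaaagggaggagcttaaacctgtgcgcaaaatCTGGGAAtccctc
Vtn (chr11:78498870-78499119, + strand): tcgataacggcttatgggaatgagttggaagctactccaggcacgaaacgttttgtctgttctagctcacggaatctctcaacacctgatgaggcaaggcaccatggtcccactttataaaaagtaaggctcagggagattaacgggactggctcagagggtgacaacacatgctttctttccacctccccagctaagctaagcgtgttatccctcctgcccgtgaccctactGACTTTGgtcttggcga
The Fgb window held 2 motifs, an IL-6 responsive match starting 91 bases before the start site and a C/EBP match at 80. The RefSeq start sites of Fga and Vtn lie inside the genes as annotated in the files' gene models, so these windows overlap the first bases of those models. In Fga a C/EBP match began at 135 bases, whereas Fgg held only an IL-6 responsive match, at 13. Vtn had an HNF4 match at 17, inside that model. RefSeq windows were found for 26 of the 33 members, 23 of them hepatocyte factors. Of these 23, 7 held the C/EBP letters (30.4%), against 10.8% of 27025 gene symbols with a window of the same length. The HNF4 letters were in 1 of 23 (4.35%, against 4.33%) and the IL-6 responsive letters in 3 of 23 (13%, against 10.4%). F7, the member with the deepest fall on the WD, held none of the 3 in this window. A match is a string of letters and says nothing on whether a factor was bound.

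On the WD the hepatocyte factors fell almost as a block, and the endothelial and inducible genes all rose. In WD saline 23 of the 27 hepatocyte factors were below ND saline, 1 was higher (Pros1) and 3 did not pass (F5, F13b and Serpina10). All 6 endothelial and inducible genes were higher. Over all genes tested, 25.0% were lower and 28.1% higher in this comparison, so changes were common at large. The median log2 fold change was -1.08 over the hepatocyte factors, 1.34 over the 6 others and 0.01 over all genes. The 3 livers of each diet did not overlap in 23 lower and 7 higher members, and over all genes 29.4% were lower and 31.1% higher without overlap.

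**Figure D1:**
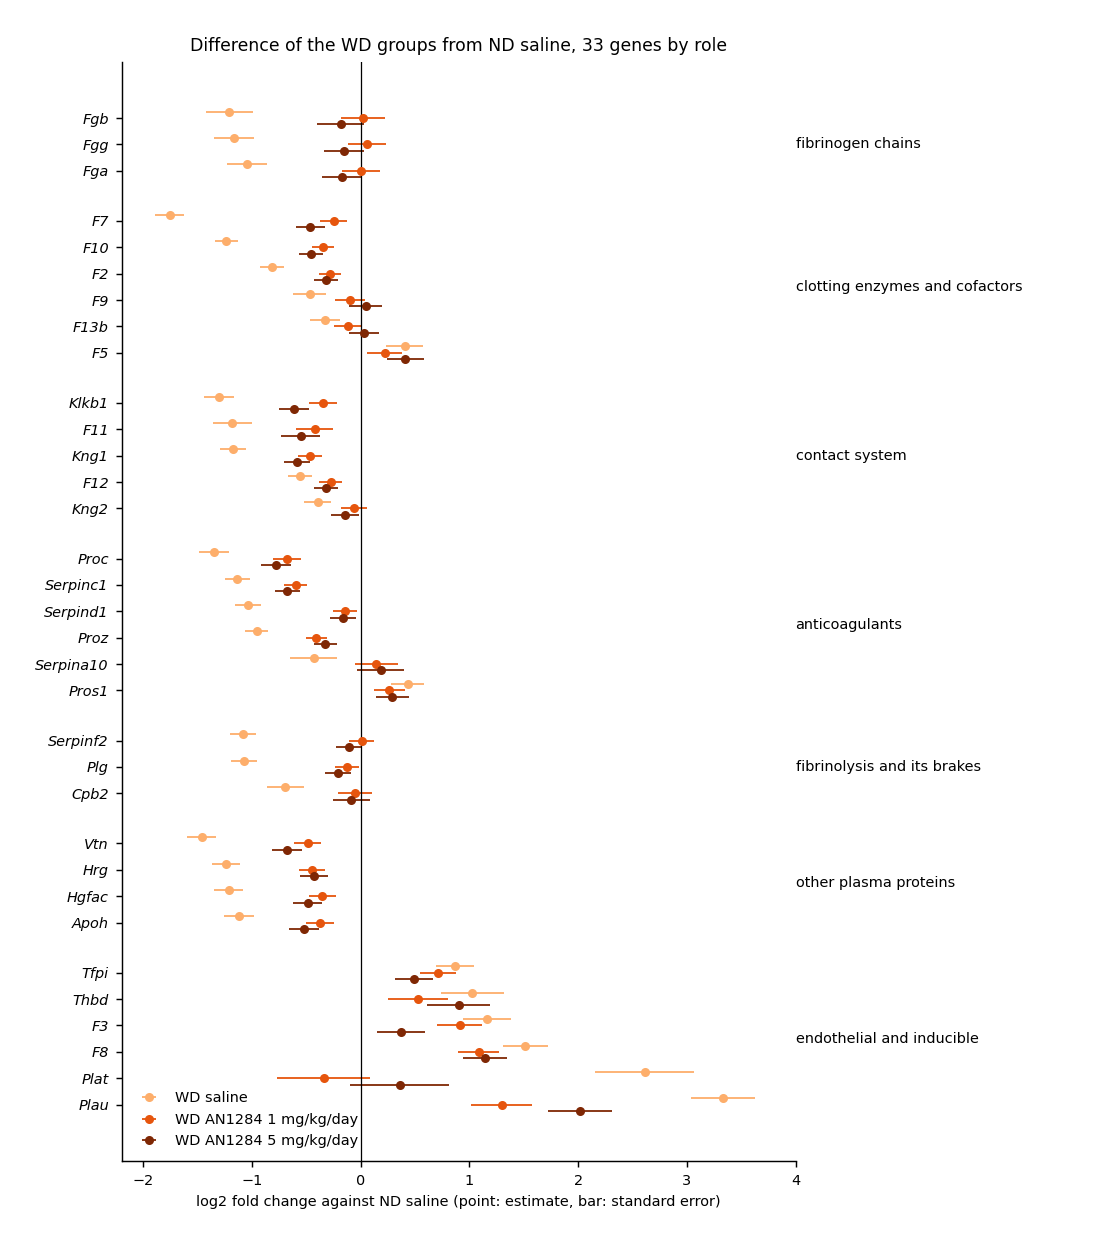
Log2 fold change (horizontal axis, point and SE bar) of each of the 33 genes, grouped by role on the vertical axis, in WD saline (light orange), WD AN1284 1 mg/kg/day (orange) and WD AN1284 5 mg/kg/day (brown) against ND saline. The light orange points of the 23 hepatocyte factors that fell lie left of 0, as do those of F13b and Serpina10, the fibrinogen chains return to between -0.18 and 0.06 with AN1284, and Proc, Serpinc1 and Vtn stop short of it.

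The fibrinogen chains, whose products are assembled into 1 secreted protein, fell together. Fgb, the beta chain, was at 151324, 162363 and 184721 normalized counts in ND saline and at 89687, 68554 and 59592 in WD saline. Every WD saline liver was thus below the lowest ND saline liver, and the chain fell by 1.21 on the log2 scale (SE 0.22, adjusted p = 0.00017). Fga, the alpha chain, went from a mean of 194089 ± 21419 (SD, n = 3) to 94769 ± 17747 (SD, n = 3) and fell by 1.04 (adjusted p = 0.000151). For Fgg, the gamma chain, the means were 140879 ± 7431 and 63227 ± 9867 (SD, n = 3 each), and it fell by 1.17 (adjusted p = 5.55e-05). The ratio of Fgg to Fgb reads lay between 0.79 and 0.889 in ND saline and between 0.821 and 0.906 in WD saline, which overlap. That of Fga to Fgb reads did not overlap, at 1.12 to 1.26 in ND saline and 1.27 to 1.35 in WD saline.

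Among the clotting enzymes and cofactors, F7 had the deepest fall of all 33 members. Factor VII is the partner of tissue factor at the start of the cascade, and its message was at 2555, 2961 and 2223 normalized counts in ND saline and at 852, 831 and 613 in WD saline. It fell by 1.76 on the log2 scale (SE 0.13, adjusted p = 2.04e-08). F10, its neighbour on the chromosome and the enzyme that converts prothrombin, fell by 1.24 (adjusted p = 9.89e-08), and F2, prothrombin itself, by 0.81 (adjusted p = 1.1e-05). F9, the enzyme missing in haemophilia B, fell by only 0.47 (adjusted p = 0.0134), and that call was lost without ND saline liver 2 (adjusted p = 0.0653). F13b, the carrier subunit of the fibrin-crosslinking factor XIII, had a log2 fold change of -0.33 that did not pass (adjusted p = 0.0553). F5, the cofactor of F10, went against the group without passing: its livers held 12318, 16756 and 13623 in ND saline and 20454, 16021 and 19862 in WD saline, which overlap (log2 fold change 0.40, SE 0.17, adjusted p = 0.0547).

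All 5 contact system genes fell, these being the proteins that start clotting on foreign surfaces and release bradykinin. Klkb1 (plasma prekallikrein) had means of 5687 ± 1169 in ND saline and 2289 ± 381 in WD saline (SD, n = 3 each; log2 fold change -1.31, adjusted p = 7.98e-07). F11 (-1.18, adjusted p = 3.64e-05) and Kng1 (-1.18, adjusted p = 5.24e-07) fell by similar amounts, F12 by less (-0.56, adjusted p = 0.000455). Kng2 had the smallest fall, -0.40 (adjusted p = 0.0143), which did not pass without ND saline liver 1 or WD saline liver 3 (adjusted p up to 0.0999).

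Of the 6 anticoagulants 4 fell and 1 rose. Proc, protein C, was at 19383, 14226 and 17165 normalized counts in ND saline and 5919, 7740 and 6292 in WD saline, a log2 fold change of -1.35 (SE 0.14, adjusted p = 6.08e-07). Serpinc1, antithrombin, held 82041, 69030 and 72038 and 30695, 36340 and 34463 in the same groups (-1.14, SE 0.11, adjusted p = 4.59e-07). In both genes every WD saline liver was below every ND saline liver. Serpind1, heparin cofactor II, fell by 1.03 (adjusted p = 2.08e-06), and Proz, the cofactor of the protein Z inhibitor, by 0.96 (adjusted p = 1.11e-06). Serpina10, the inhibitor that Proz serves, did not pass (-0.43, adjusted p = 0.0968). Pros1, protein S, rose, from 1652, 2073 and 1467 to 2323, 2159 and 2466 (log2 fold change 0.43, SE 0.15, adjusted p = 0.0238). That rise is the weakest call among the 7 members that rose: it was lost in 4 of the 19 fits that each left out 1 library, those without ND saline liver 1 or 3 or WD saline liver 1 or 3 (adjusted p up to 0.12), and against the ND livers given AN1284 (0.23, adjusted p = 0.166).

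The fibrinolytic genes of the hepatocyte and the remaining plasma proteins fell as well. Plg, plasminogen, had means of 81673 ± 8553 in ND saline and 38890 ± 3786 in WD saline (SD, n = 3 each; log2 fold change -1.07, adjusted p = 1.56e-06). Its brakes fell with it: Serpinf2 (alpha-2-antiplasmin) by 1.08 (adjusted p = 1.65e-06) and Cpb2 (the carboxypeptidase TAFI) by 0.69 (adjusted p = 0.00232). Vtn, an adhesion protein of plasma and matrix, had 105903, 91396 and 78271 in ND saline and 34841, 36321 and 28555 in WD saline (-1.46, SE 0.14, adjusted p = 1.93e-07). Hrg (histidine-rich glycoprotein), Hgfac (the activator of hepatocyte growth factor) and Apoh changed by -1.24, -1.22 and -1.12 (adjusted p from 6.15e-07 to 5.77e-06).

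The hepatocyte factors did not move alone. All 14 hepatocyte markers were lower on the WD, where 25.0% of all genes were, with a median log2 fold change of -1.26 over the markers. Their summed normalized count was 3989148 to 4330960 in ND saline and 1538483 to 2036429 in WD saline. The markers fell by unequal amounts, from -0.60 in Asgr1 to -3.14 in Tat, and the scale used below is the mean of their log2 values. When the libraries were scaled to these markers, the median of all genes moved to 1.46, no member was lower and 21 were higher. Of the 23 members that fell, only F7 (-0.30, adjusted p = 0.087) and Vtn (-0.002, adjusted p = 0.99) kept a negative sign on that scale. Those that changed sign were not all among the 21 called higher. F10, F11, Fga, Fgb, Fgg, Proc, Kng1, Klkb1, Hrg and Hgfac turned positive without passing (adjusted p from 0.086 to 0.384). With scaling by total reads the median of all genes moved to 0.44, 19 members were lower and 8 higher. Both scalings shift genes at large, so these counts of members cannot be read against the shares of all genes in the main fit. The lower count was 24 and the higher count 5 against the ND livers given AN1284, where over all genes 20.5% were lower and 24.1% higher; there F9 no longer passed (-0.23, adjusted p = 0.159). The part of hepatocyte number in these falls was not tested.

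The 6 endothelial and inducible genes rose in every case. Plau, the activator uPA, was at 19.2, 15.8 and 10.1 normalized counts in ND saline and at 184, 148 and 138 in WD saline, the largest rise among the members (3.33, SE 0.30, adjusted p = 1.38e-07). Plat, the activator tPA, held 24.3, 17.1 and 17.7 and 83.5, 143 and 159 (2.61, SE 0.46, adjusted p = 0.000142). These low counts are known less precisely than those of the hepatocyte factors, yet neither gene overlapped between the diets. F8, the cofactor missing in haemophilia A and in the liver a product of sinusoidal endothelium, went from 155, 229 and 167 to 776, 385 and 467 (1.51, adjusted p = 1.11e-05), WD saline liver 1 being the highest. Thbd, thrombomodulin, which turns thrombin into an activator of protein C, held 74.1, 126 and 87.3 and 233, 137 and 221 (1.03, adjusted p = 0.00698). Tfpi, the inhibitor of tissue factor and factor VII, rose from 88.7 ± 5.5 to 165 ± 39.1 (SD, n = 3 each; 0.87, adjusted p = 0.000568). F3, tissue factor, was at 57.5, 32.9 and 53.1 in ND saline and 89.3, 108 and 121 in WD saline (1.16, SE 0.22, adjusted p = 0.000312). That call depends on the reference: against the ND livers given AN1284 the log2 fold change of F3 was 0.01 (adjusted p = 0.962). F8, Thbd, Tfpi, Plat and Plau still passed there. F3 was itself higher in the ND livers given AN1284 than in ND saline, so this reference mixes diet with drug.

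Markers of several cell types moved with these genes, in a comparison where 28.1% of all genes were higher on the WD. All 10 vascular endothelial markers were higher on the WD, with a summed normalized count of 3795 to 4513 in ND saline and 6389 to 9365 in WD saline, and 7 of 10 sinusoidal endothelial markers were higher (4972 to 5412 and 6755 to 10044). Stellate markers were higher in 7 of 10 (6502 to 9457 and 18876 to 25624), cholangiocyte markers in 4 of 7 tested (1990 to 3144 and 7428 to 13133) and macrophage markers in 8 of 10 (4411 to 6682 and 9353 to 17589). Monocyte and neutrophil markers were higher in 6 of 8 (220 to 423 and 1147 to 2192), and platelet and megakaryocyte markers in 3 of 5 tested (163 to 277 and 471 to 643). No marker of these lists was at 0 in all livers of either saline group. The part of these cell types in the rise of the 6 genes was not tested.

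**Figure D2:**
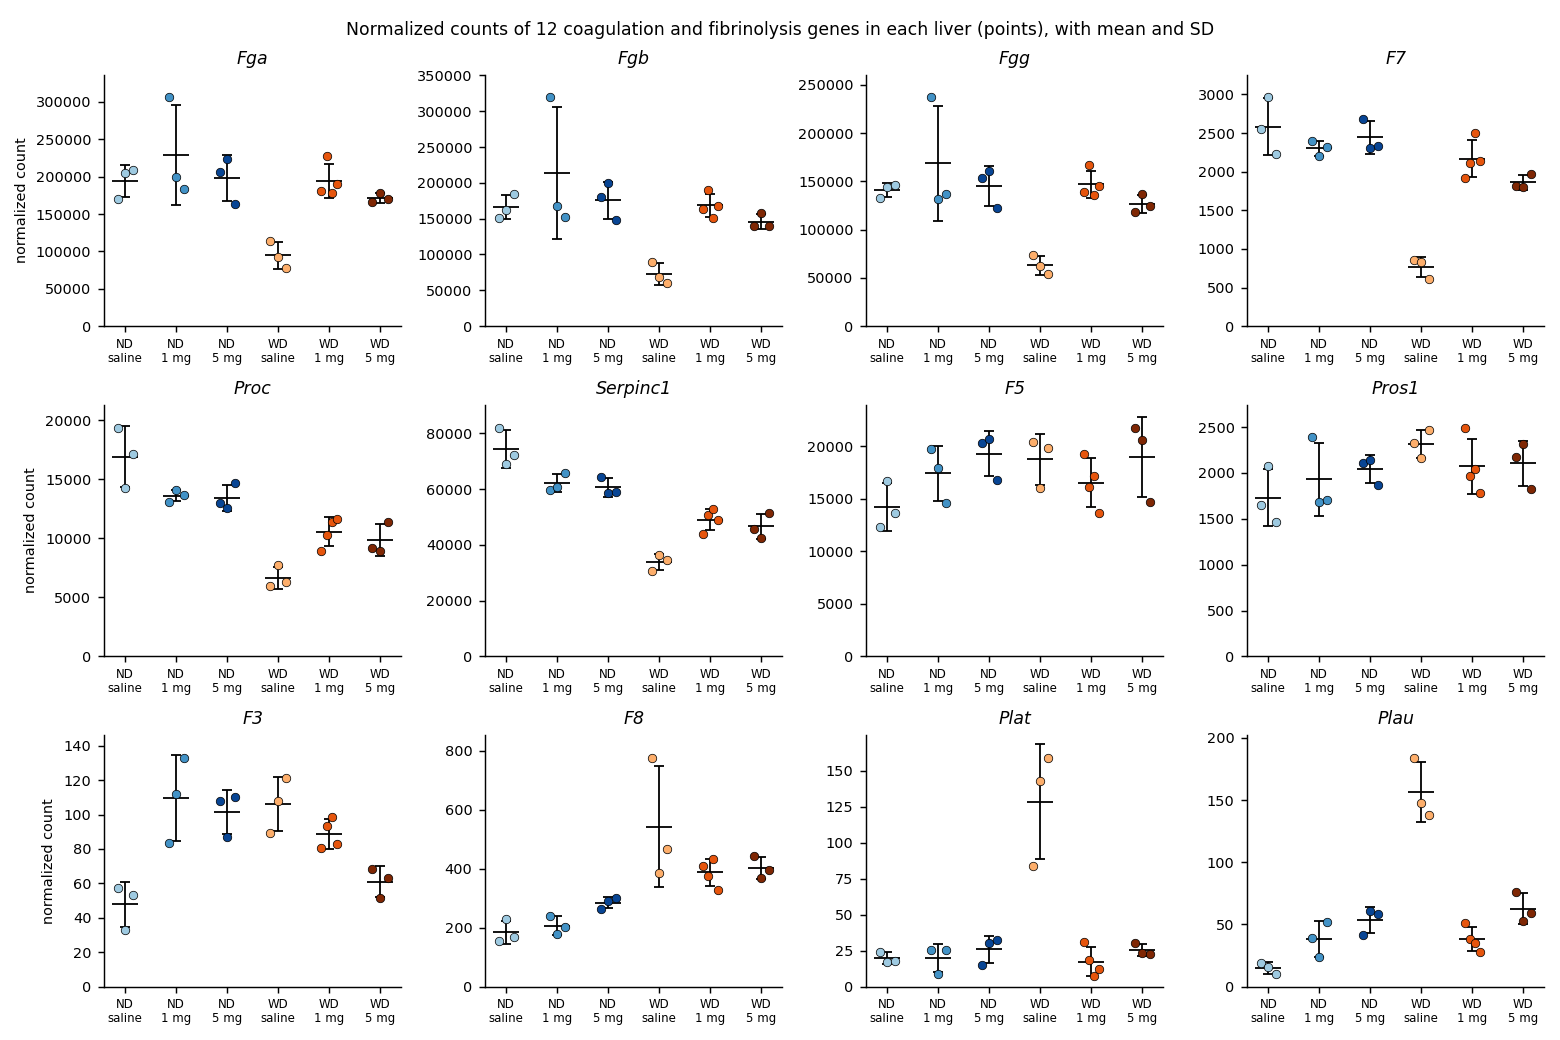
Normalized counts (vertical axis, from 0) of 12 members in each liver (points), with mean and SD, in the 6 groups; doses are in mg/kg/day. WD saline lies lowest for Fga, Fgb, Fgg, F7, Proc and Serpinc1 and highest for F8, Plat and Plau. F5 overlaps between ND saline and WD saline, whereas Pros1 does not, and F3 is lowest in ND saline at 32.9 to 57.5.

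Under AN1284 on the WD the hepatocyte factors rose and the plasminogen activators fell. With 1 mg/kg/day 22 members rose, all of them hepatocyte factors, and 2 fell, Plat and Plau, where 10.3% of all genes rose and 12.6% fell. With 5 mg/kg/day 21 members rose, all hepatocyte factors, and 3 fell, F3, Plat and Plau, against 5.51% and 7.03% of all genes. The treated and saline livers did not overlap in 23 higher and 2 lower members at 1 mg/kg/day (15.0% and 18.2% of all genes) and in 25 higher and 3 lower members at 5 mg/kg/day (16.2% and 19.7%). The median over the 27 hepatocyte factors was 0.75 and 0.63 with the 2 doses, and that over all genes was 0.01 and -0.01. F5, F12, F13b and Pros1 passed at neither dose; F9 passed only at 5 mg/kg/day, and Kng2 and Serpina10 only at 1 mg/kg/day. The latter 2 calls were each lost in 11 of 19 fits without 1 library (adjusted p up to 0.185 for Kng2 and 0.152 for Serpina10), and the 5 mg/kg/day call of F9 in 5 of 19, without any 1 of the WD saline livers or without WD AN1284 5 mg/kg/day liver 1 or 2 (adjusted p up to 0.113).

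F7 rose most, from 852, 831 and 613 normalized counts in WD saline to 1924, 2107, 2496 and 2136 with 1 mg/kg/day and 1812, 1797 and 1970 at the higher dose. Its log2 fold changes were 1.51 (SE 0.12, adjusted p = 3.96e-07) and 1.29 (SE 0.13, adjusted p = 1.21e-05), and no treated liver overlapped the saline livers. The fibrinogen chains rose too. Fgb was at 164104, 190608, 151197 and 168354 and at 140176, 158067 and 139450 with the 2 doses (1.23, adjusted p = 0.00025, and 1.02, adjusted p = 0.0041), Fgg rose to means of 146761 ± 13799 (SD, n = 4) and 126712 ± 9385 (SD, n = 3), and Fga rose by 1.05 and 0.87. Serpinf2 (by 1.09 and 0.98), Plg (0.94 and 0.86), Vtn (0.97 and 0.79), Klkb1 (0.96 and 0.69), Serpind1 (0.89 and 0.87) and F10 (0.89 and 0.78) also rose. The smaller rises included Proc (0.67 and 0.56), Serpinc1 (0.54 and 0.46), F2 (0.53 and 0.50) and Proz (0.55 and 0.63). At 5 mg/kg/day the calls of F11, Proc, Serpinc1, Cpb2, Apoh and F3 were lost in at least 1 fit without a single library of the WD saline or WD AN1284 5 mg/kg/day groups (adjusted p up to 0.142). At the lower dose Cpb2 did not pass without WD saline liver 3 (adjusted p = 0.0585).

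Plat fell to levels near those of the ND livers. It held 83.5, 143 and 159 normalized counts in WD saline, 30.7, 18.7, 7.18 and 12.3 with 1 mg/kg/day and 30, 23.4 and 22.9 at the higher dose, and fell by 2.95 (SE 0.43, adjusted p = 8.05e-05) and 2.25 on the log2 scale (SE 0.46, adjusted p = 0.00315). Plau was at 51.2, 38.2, 34.9 and 28 and 76.4, 52.9 and 58.9, below every WD saline liver but above every ND saline liver, and fell by 2.04 (adjusted p = 4.97e-05) and 1.31 (adjusted p = 0.00663). F3 fell only at 5 mg/kg/day, by 0.79 (adjusted p = 0.0245), to 68.6, 51.2 and 63.3, whereas at 1 mg/kg/day it held 80.3, 93.5, 98.5 and 83 (-0.25, adjusted p = 0.429). F8, Thbd and Tfpi did not pass at either dose, with log2 fold changes from -0.50 to -0.13 and adjusted p of 0.114 or more. Beside these, all 7 cholangiocyte markers tested were lower with 1 mg/kg/day (summed 1228 to 2027) and 4 of 7 with 5 mg/kg/day (1473 to 3795). Stellate markers were lower in 7 of 10 and 4 of 10 (6190 to 10635 and 7752 to 11958), vascular endothelial markers in 4 and 1 of 10 (5430 to 6460 and 5036 to 6185), 1 sinusoidal endothelial marker was lower at each dose and 1 was higher at 1 mg/kg/day. Of the 10 macrophage markers 3 were higher and 3 lower with 1 mg/kg/day and 2 lower with 5 mg/kg/day (summed 13428 to 20223 and 13149 to 15810), and of the 8 monocyte and neutrophil markers 1 was lower at 1 mg/kg/day (830 to 4658 and 1577 to 1857). Hepatocyte markers were higher in 12 and 7 of 14 (summed 2616027 to 2902516 and 2116431 to 2827167). Of all genes 10.3% and 5.51% were higher and 12.6% and 7.03% lower at the 2 doses. On the scale of these hepatocyte markers 1 member was higher at each dose and 16 and 14 were lower, where 12160 and 11374 of all 14743 genes were lower and their median moved to -0.94 and -0.79. The part of any of these cell types was not tested.

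No member passed the test between the 2 doses. In WD AN1284 5 mg/kg/day against 1 mg/kg/day no member passed and 0.0% of all genes did by limma, and 776 of 14743 genes had an unadjusted p under 0.05. The largest differences were in Plau (0.72, SE 0.28, adjusted p = 0.761), Plat (0.70, SE 0.43, adjusted p = 0.998) and F3 (-0.54, SE 0.21, adjusted p = 0.759). The livers of the doses did not overlap in 1 member that was higher with 5 mg/kg/day, Plau, and in 4 that were lower, Fga, Kng1, Klkb1 and F3, where 3.74% of all genes were higher and 2.96% lower in this way. On the ND no member passed either, where 0.0203% of all genes were higher and 0.0203% lower, and the largest difference was in Thbd (1.39, SE 0.29, adjusted p = 0.106). A missed threshold does not show that the doses act alike.

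Whether the treated WD livers reached ND saline levels differed between the members. With 1 mg/kg/day 11 hepatocyte factors were still lower than in ND saline, where 13.5% of all genes were, and 14 with 5 mg/kg/day, where 14.1% were. The fibrinogen chains were not among them: Fga, Fgb and Fgg differed from ND saline by 0.00, 0.02 and 0.06 with 1 mg/kg/day (SE 0.17 to 0.20) and by -0.17, -0.18 and -0.15 with 5 mg/kg/day. Serpinf2 (0.01 and -0.11), Plg (-0.13 and -0.21), Serpind1 (-0.14 and -0.17) and Cpb2 (-0.05 and -0.09) did not pass at either dose. Proc remained furthest below, at -0.68 (SE 0.13, adjusted p = 0.000946) and -0.78 (SE 0.14, adjusted p = 0.000639), followed at the lower dose by Serpinc1 (-0.60 and -0.68), Vtn (-0.49 and -0.68), Kng1 (-0.46 and -0.59) and Hrg (-0.45 and -0.43). F2, F10, Proz, Apoh, Hgfac and Klkb1 were also lower at both doses, and F7, F11 and F12 only at 5 mg/kg/day. Scaling by total reads left 2 and 6 members lower than in ND saline, and scaling to hepatocyte markers none. As both scalings shift genes at large, these counts do not compare with the shares of all genes given above. The calls of Proc, Serpinc1 and Kng1 held in each fit without 1 library at both doses, while those of F2, Apoh and Hgfac were lost in 9, 4 and 6 of 19 fits at 1 mg/kg/day and in 4, 1 and 1 at 5 mg/kg/day, and that of Klkb1 at 1 mg/kg/day in 13. The calls of F10 and Vtn at 1 mg/kg/day and of F7, F11, F12, Proz and Hrg at 5 mg/kg/day were lost in 1 to 4 fits (adjusted p up to 0.148). When ND livers given the same dose were the reference, F11 (-0.63, adjusted p = 0.019) and Serpinc1 (-0.34, adjusted p = 0.0411) were lower at 1 mg/kg/day, where 4.92% of all genes were, and F11 at 5 mg/kg/day (-0.96, adjusted p = 0.00516), where 1.37% were. No other hepatocyte factor passed. Without overlap of the livers 7 hepatocyte factors were lower at 1 mg/kg/day and 16 at 5 mg/kg/day, and over all genes 10.2% and 12.2% were lower and 11.6% and 13.2% higher in this way. The Serpinc1 call was lost in 9 of 19 fits without 1 library (adjusted p up to 0.119), and that of F11 at 1 mg/kg/day in 2, without ND AN1284 1 mg/kg/day liver 2 or WD AN1284 1 mg/kg/day liver 2 (adjusted p up to 0.105).

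Of the endothelial and inducible genes 4 remained higher than in ND saline at each dose, where 16.9% and 16.7% of all genes were higher. F8 (1.08 and 1.14), Tfpi (0.71 and 0.49) and Plau (1.30 and 2.02) passed at both doses, F3 (0.91) at 1 mg/kg/day and Thbd (0.90) at 5 mg/kg/day. At 5 mg/kg/day the calls of Tfpi and Thbd were lost in 10 and 4 of 19 fits without 1 library (adjusted p up to 0.131). Against ND livers of the same dose F8 (0.91), Thbd (1.54) and Tfpi (0.77) were higher at 1 mg/kg/day (8.05% of all genes), and none of the 6 at 5 mg/kg/day (1.7%).

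Ratios between members within a library do not depend on the scaling. For each Serpinc1 read there were 1.84 to 2.56 Fgb reads in ND saline and 1.73 to 2.92 in WD saline, which overlap. With 1 mg/kg/day on the WD the ratio was 2.86 to 3.77 and with 5 mg/kg/day 2.7 to 3.71, above every ND saline liver. F7 reads per Proc read were 0.13 to 0.208 in ND saline, 0.0974 to 0.144 in WD saline, 0.184 to 0.219 with 1 mg/kg/day and 0.173 to 0.202 at the higher dose. F5 reads per F10 read were 0.825 to 1.17 in ND saline, 2.37 to 3.57 in WD saline and 1.2 to 1.87 and 1.33 to 2.14 with the 2 doses. The ND livers given AN1284 also lay above ND saline in part: their Fgb reads per Serpinc1 read were 2.32 to 5.36 with 1 mg/kg/day and 2.51 to 3.41 at the higher dose. Pros1 reads per Proc read were 0.0852 to 0.146 in ND saline, 0.279 to 0.393 in WD saline, 0.153 to 0.278 and 0.161 to 0.26. The exact permutation test (two-sided) cannot go below p = 0.1 with 3 livers against 3 or below 0.0571 with 4 against 3. At these limits none of the 20 such tests on these 4 ratios could pass, and none did after Benjamini-Hochberg adjustment (lowest adjusted p = 0.143). In 14 of them the groups did not overlap, and no share over other pairs of genes was computed to set beside this. F5 and Pros1 did not fall on the WD while F10 and Proc did, so their ratios restate the fold changes given above.

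**Figure D3:**
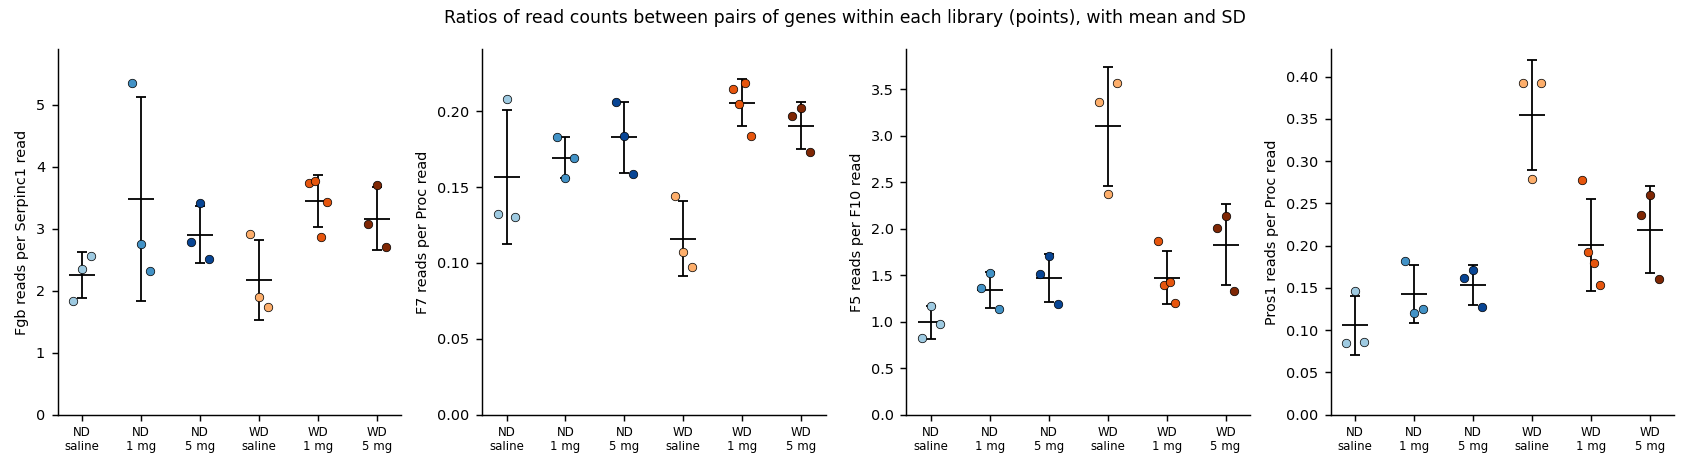
Ratios of read counts between pairs of genes (vertical axes, from 0) in each liver (points), with mean and SD, in the 6 groups; doses are in mg/kg/day. Fgb per Serpinc1 is 1.73 to 2.92 in both saline groups and above 2.56 in all 7 treated WD livers, and F5 per F10 is highest in WD saline at 2.37 to 3.57.

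On the ND none of the 27 hepatocyte factors passed the test with AN1284, and their medians were -0.08 and -0.04 with 1 and 5 mg/kg/day. Hepatocyte markers were lower in 2 of 14 at each dose, Tat (-2.09 and -1.9) and Pck1 (-0.88 and -1.02), and the others did not pass. On the scale of all 14 markers 12 members were higher with 1 mg/kg/day and 6 at the higher dose, as were 4719 and 2518 of all 14743 genes, their median moving to 0.44 and 0.31. Members that rose on the ND were all inducible or endothelial genes. With 1 mg/kg/day F3 and Plau rose, where 2.9% of all genes did, and with 5 mg/kg/day F3, F8 and Plau, where 6.27% did. No member fell at either dose (1.74% and 3.89% of all genes). F3 was at 83.2, 112 and 133 normalized counts with 1 mg/kg/day and 108, 86.7 and 110 at the higher dose, above all 3 ND saline livers (1.19, adjusted p = 0.00423, and 1.10, adjusted p = 0.00676). Plau held 39.2, 23.5 and 52 and 41.5, 60.7 and 58.3 (1.26, adjusted p = 0.0198, and 1.79, adjusted p = 0.0021). The Plau call at the lower dose did not hold without ND saline liver 3 or without ND AN1284 1 mg/kg/day liver 1 or 3 (adjusted p up to 0.0912) and, together with that of F3, in a fit of the 2 groups alone (adjusted p = 0.239 and 0.123). F8 at 5 mg/kg/day (0.65, adjusted p = 0.0494) was lost in 13 of 19 fits without 1 library (adjusted p up to 0.167). Macrophage markers were higher in 4 of 10, and vascular and sinusoidal endothelial markers in 3 of 10 each, with 5 mg/kg/day on the ND and in none with 1 mg/kg/day; their part was not tested. Thbd had its lowest values with 1 mg/kg/day on the ND, 47.7, 41.2 and 49.2, below all ND saline livers, without passing (-1.01, adjusted p = 0.0557).

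One ND liver given 1 mg/kg/day stood apart in the fibrinogen chains. Liver 1 of that group held 305980 normalized counts of Fga, 319275 of Fgb and 236957 of Fgg, against 183089 to 198995, 152366 to 168007 and 132022 to 136608 in the other 2. It also held 12194 of Serpina10, against 5406 and 6679. The acute phase gene Saa2 reached 221257 in that liver, where the group began at 3451, and the summed acute phase genes of the group ran from 367433 to 1250112. Without it none of the hepatocyte factors passed either in the comparison with ND saline.

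The difference between the diets in the response to AN1284 was tested as an interaction. It was positive in 20 of the 27 hepatocyte factors at each dose, where it was so in 9.39% and 8.54% of all genes. It was negative in 3 and 4 of the 6 other genes, where 11.3% and 11.6% of all genes were. The largest positive values were those of F7 (1.66, adjusted p = 1.75e-05, and 1.37, adjusted p = 0.000207) and, at 1 mg/kg/day, Klkb1 (1.34, adjusted p = 0.000117). Plau had the most negative (-3.30, adjusted p = 4.13e-05, and -3.10, adjusted p = 0.000207), and it rose on the ND and fell on the WD. Plat (-2.84 and -2.58) and F3 (-1.43 and -1.89) were negative at both doses and F8 at 5 mg/kg/day (-1.02, adjusted p = 0.0196). The calls of Fga, Fgb, F9 and Cpb2 at both doses, and of F2 and Apoh at 5 mg/kg/day, were lost in 3 to 7 of 19 fits without 1 library (adjusted p up to 0.0937). Scaling by total reads, which also shifts genes at large, left 12 and 9 members with a positive interaction. On the scale of hepatocyte markers none was positive and 21 and 15 were negative, among 12240 and 11089 negative genes of 14743, the median of all genes moving to -1.39 and -1.11. F5, F11, F12, F13b, Pros1, Serpina10, Kng2, Thbd and Tfpi did not pass at either dose.

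**Figure D4:**
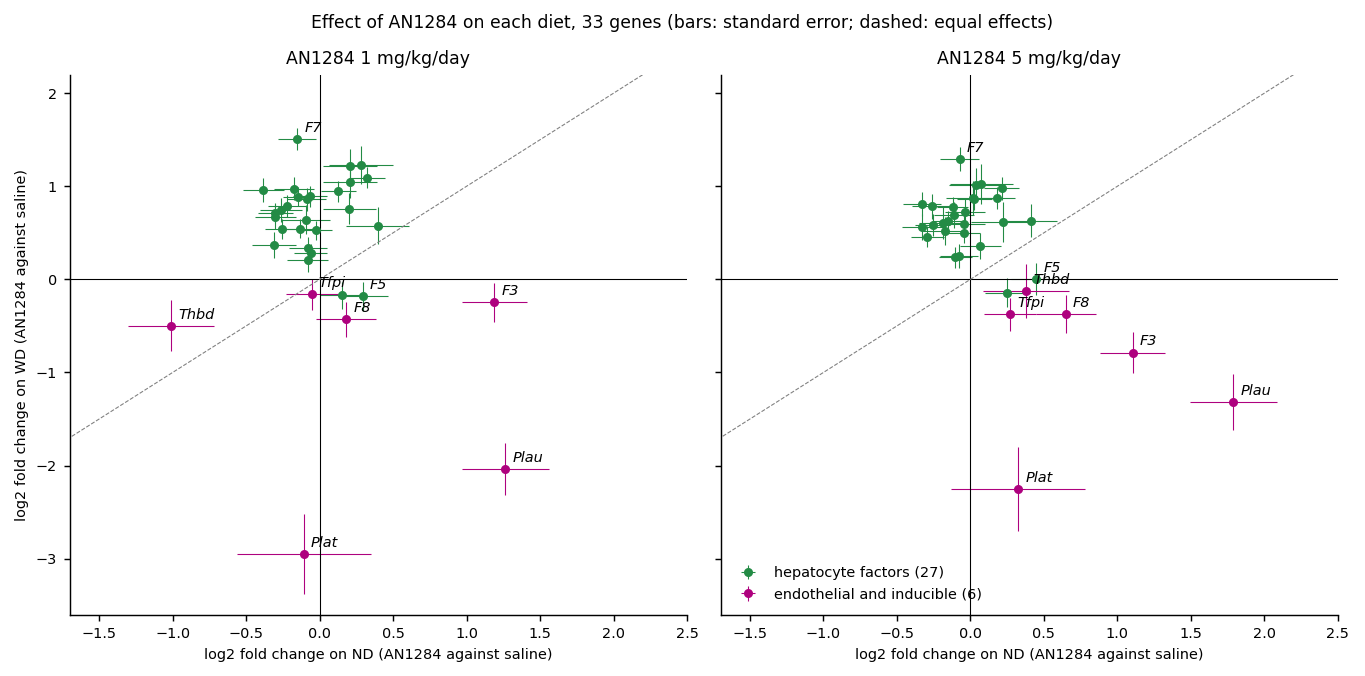
Log2 fold change of AN1284 against saline on the ND (horizontal) and on the WD (vertical) for the 27 hepatocyte factors (green) and the 6 endothelial and inducible genes (magenta), with SE bars, at 1 mg/kg/day (left) and 5 mg/kg/day (right). The dashed line marks equal effects; most green points lie near 0 on the ND axis and above 0 on the WD axis, with F7 highest at 1.51 and 1.29, while Plau lies to the right of and below 0.

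Other genes of the pathway, from a list of 29 that holds none of the members, gave 26 tested. On the WD 13 were higher and 7 lower, with 1 mg/kg/day on the WD 6 rose and 8 fell, and with 5 mg/kg/day 4 rose and 6 fell. Of all genes 28.1% were higher and 25.0% lower on the WD. With 1 mg/kg/day on the WD 10.3% rose and 12.6% fell, and with 5 mg/kg/day 5.51% and 7.03%. Plaur, the receptor of uPA, changed by 3.85, -1.83 and -1.44, and Anxa2, a cell surface receptor for plasminogen and tPA, by 3.98, -2.19 and -1.68, in the diet comparison and then at each dose on the WD, the lower first, all 6 values passing. Plaur and Anxa2 thus moved in the same direction as Plat and Plau in each of the 3 comparisons. Serpine2, protease nexin-1, fell on the WD (-2.21) and did not pass with either dose. Among the hepatocyte genes of the list, Vkorc1, which recycles the vitamin K that F2, F7, F9, F10, Proc, Pros1 and Proz need, fell by 0.77 and rose by 0.70 with 1 mg/kg/day, and Serping1, the C1 inhibitor that also restrains the contact system, fell by 0.88 and rose by 0.79 and 0.73. Ggcx, the carboxylase that uses vitamin K, fell by 0.50 and did not pass with AN1284. The endothelial genes Vwf (0.93) and Procr (1.19), the protein C receptor, rose on the WD and, like F8 and Thbd, did not pass with AN1284 on the WD.

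Among 15 hepatocyte transcription factors 11 were lower on the WD and 2 higher (25.0% and 28.1% of all genes). Hnf4a was at 21545 to 26222 normalized counts in ND saline, 12553 to 12841 in WD saline and 19457 to 21838 and 16989 to 20330 with the 2 doses (-0.90, 0.67 and 0.55, all passing). Foxa3 (-1.20, 1.05 and 0.67) also passed in all 3 comparisons. Cebpb (-1.40 on the WD) was lower in every group than in ND saline, also with AN1284 on the ND (-1.44 and -1.41). Of 16 acute phase genes tested 2 were higher and 3 lower on the WD (28.1% and 25.0% of all genes). On the WD 8 of them rose with 1 mg/kg/day and 4 at the higher dose (10.3% and 5.51% of all genes). Il6ra, the receptor through which interleukin-6 induces fibrinogen in the hepatocyte, changed by -1.41, 1.52 and 1.25, all passing. Il6st, of the same list, went the other way on the WD, rising by 0.67 (adjusted p = 0.00118). It did not pass with 5 mg/kg/day (-0.03), and Socs3 did not pass on the WD (0.006). Saa1, a strongly induced acute phase gene, spread widely within groups (5232 to 47938 in WD saline, 40579 to 83748 and 15038 to 115149 with the 2 doses) and did not pass.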

How the data were processed

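Liver poly-A RNA of 19 mice in 6 groups was sequenced, 1 library per mouse. Per the labels, the tools of the authors were cutadapt 1.18 for trimming, TopHat2 2.1.1 for alignment (build GRCm38), HTSeq 0.6.0 for counts per gene and DESeq2 1.22.1 for size factors, by which counts were divided; the deposited values are raw counts and normalized counts. The strand setting of the counting and which of the 2 sequencing runs held each library are not given in the sources used here. The deposited columns of the authors' own comparisons hold fold changes and p-values and were not used. Here log2(normalized count + 1) of the 14743 genes with at least 10 normalized counts in at least 3 libraries was fitted with limma 3.58.1 (trend and robust variance, R 4.3.3) in 1 model of 6 groups, with Benjamini-Hochberg adjustment and a threshold of 0.05. Fold changes of genes with low counts are understated on this scale. The procedure was tested on simulated data. Replicates are separate mice.

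The members and the gene lists were chosen with earlier results of these data known. All 33 members are accounted for, and up to 8 genes of each other list could be named, by smallest p in the diet or the 1 mg/kg/day comparison, besides genes that stand beside a result. Alternatives were other pseudocounts, no filter, other scalings, limma voom, another variance model, fewer groups, a replicate block, leaving out each library and, chosen after seeing the data, the ND livers given AN1284 as the reference.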

Additional observations from a re-analysis of the deposited data

Results flagged for a closer look

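Cpb2, the carboxypeptidase TAFI, had 1 liver apart from the other 3 of WD AN1284 1 mg/kg/day. The livers held 10747, 10803, 11624 and 10822 normalized counts, and the gap of the highest to its nearest neighbour was 0.914 of the range of the group. Chance sets about 1 in 20 groups of this size apart, and 33 members were checked in this group.

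The response to AN1284 1 mg/kg/day differed between the diets, by the interaction term of the limma model, in 23 members. The difference of log2 fold changes, WD minus ND, was positive for F2 0.56, F7 1.66, F9 0.68, F10 1.03, Fga 0.84, Fgb 0.95, Fgg 1.02, Plg 0.82, Proc 0.97, Proz 0.68, Serpinc1 0.80, Serpind1 0.96, Serpinf2 0.77, Kng1 1.02, Klkb1 1.34, Cpb2 0.74, Vtn 1.15, Hrg 1.01, Apoh 1.01 and Hgfac 0.95. It was negative for F3 -1.43, Plat -2.84 and Plau -3.30.

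The response to AN1284 5 mg/kg/day differed between the diets, by the interaction term of the limma model, in 24 members. The difference of log2 fold changes, WD minus ND, was positive for F2 0.54, F7 1.37, F9 0.69, F10 0.90, Fga 0.85, Fgb 0.95, Fgg 0.97, Plg 0.84, Proc 0.89, Proz 0.79, Serpinc1 0.75, Serpind1 0.69, Serpinf2 0.76, Kng1 0.84, Klkb1 0.81, Cpb2 0.79, Vtn 1.04, Hrg 1.14, Apoh 0.64 and Hgfac 0.77. It was negative for F3 -1.89, F8 -1.02, Plat -2.58 and Plau -3.10.

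Both doses were set against the same saline livers, so the interactions at 1 and 5 mg/kg/day share these controls, and none remained positive past the threshold when the libraries were scaled to hepatocyte markers. On that scale 21 and 15 members were negative and passed, F2 among them (-0.84, adjusted p = 6.93e-05, and -0.56, adjusted p = 0.00352).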

How the results depend on the processing

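Most results for the members kept their direction and their side of the threshold in the settings that left the scaling alone. Of 169 single results the pseudocounts of 0.5 and 5 ended 0 and 1 call, dropping the filter 8, limma voom on raw counts 4, limma without trend and robust variance 5, and fits of only the groups compared 14. The fits that left out 1 library ended 203 calls and kept 3008. Scaling decided more. Scaling by total reads ended 48 calls and reversed 1, Kng2 in WD saline against ND saline (0.035), and scaling to hepatocyte markers ended 26 and reversed 106; both are changes of the reference level by construction, the median of all genes in the diet comparison moving to 0.44 and 1.46. Depth of 23326800 to 32596067 reads limits the 6 endothelial and inducible genes, which had under 1000 normalized counts in every liver. The planned TMM, edgeR and DESeq2 alternatives were not run, since the deposited raw columns hold question marks and were not accepted as plain counts.

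Same-numbered livers of different groups were treated as unpaired. The correlation of their deviations ran from -0.274 to 0.235 (median 0.011), with 12 of 45 pairs over 0.1. Between livers of other numbers it ran from -0.251 to 0.29 (median -0.018), with 21 of 105 pairs over 0.1. With the replicate number as a block 8 calls were lost, and 1 member instead of 2 was lower in WD AN1284 1 mg/kg/day against ND AN1284 1 mg/kg/day. With scaling to hepatocyte markers the members called were 21 higher in WD saline against ND saline, 0 lower in WD saline against ND saline, 1 higher in WD AN1284 1 mg/kg/day against WD saline, 16 lower in WD AN1284 1 mg/kg/day against WD saline, 1 higher in WD AN1284 5 mg/kg/day against WD saline, 14 lower in WD AN1284 5 mg/kg/day against WD saline, 12 higher in ND AN1284 1 mg/kg/day against ND saline, 6 higher in ND AN1284 5 mg/kg/day against ND saline, 1 lower in WD AN1284 1 mg/kg/day against ND AN1284 1 mg/kg/day, 1 higher in WD AN1284 5 mg/kg/day against ND AN1284 5 mg/kg/day, 0 lower in WD AN1284 5 mg/kg/day against ND AN1284 5 mg/kg/day, 14 higher in WD AN1284 1 mg/kg/day against ND saline, 0 lower in WD AN1284 1 mg/kg/day against ND saline, 17 higher in WD AN1284 5 mg/kg/day against ND saline, 0 lower in WD AN1284 5 mg/kg/day against ND saline, 0 higher in the WD minus ND effect of 1 mg/kg/day, 21 lower in the WD minus ND effect of 1 mg/kg/day, 0 higher in the WD minus ND effect of 5 mg/kg/day and 15 lower in the WD minus ND effect of 5 mg/kg/day. With limma voom on raw counts the members called were 1 higher in ND AN1284 1 mg/kg/day against ND saline. With only the groups compared in the fit the members called were 0 higher in ND AN1284 1 mg/kg/day against ND saline, 1 lower in WD AN1284 1 mg/kg/day against ND AN1284 1 mg/kg/day, 2 lower in WD AN1284 5 mg/kg/day against ND AN1284 5 mg/kg/day and 7 lower in WD AN1284 1 mg/kg/day against ND saline. With scaling by total reads the members called were 5 higher in ND AN1284 5 mg/kg/day against ND saline, 2 lower in WD AN1284 1 mg/kg/day against ND saline, 7 higher in WD AN1284 5 mg/kg/day against ND saline, 6 lower in WD AN1284 5 mg/kg/day against ND saline, 12 higher in the WD minus ND effect of 1 mg/kg/day, 6 lower in the WD minus ND effect of 1 mg/kg/day, 9 higher in the WD minus ND effect of 5 mg/kg/day and 7 lower in the WD minus ND effect of 5 mg/kg/day. Without the filter on low values the members called were 1 lower in WD AN1284 1 mg/kg/day against ND AN1284 1 mg/kg/day. Leaving out 1 library at a time gave counts of 1 to 2 higher in ND AN1284 1 mg/kg/day against ND saline, 0 to 1 lower in ND AN1284 1 mg/kg/day against ND saline, 2 to 5 higher in ND AN1284 5 mg/kg/day against ND saline, 0 to 1 lower in ND AN1284 5 mg/kg/day against ND saline, 0 to 3 lower in WD AN1284 1 mg/kg/day against ND AN1284 1 mg/kg/day, 1 to 2 lower in WD AN1284 5 mg/kg/day against ND AN1284 5 mg/kg/day, 6 to 13 lower in WD AN1284 1 mg/kg/day against ND saline, 2 to 5 higher in WD AN1284 5 mg/kg/day against ND saline and 9 to 14 lower in WD AN1284 5 mg/kg/day against ND saline. On the scale of hepatocyte markers the values that changed sign in WD saline against ND saline were F2 0.65, F9 0.99, F10 0.23, F11 0.28, F12 0.90, Fga 0.42, Fgb 0.25, Fgg 0.29, Plg 0.39, Proc 0.12, Proz 0.50, Serpinc1 0.33, Serpind1 0.43, Serpinf2 0.38, Kng1 0.28, Kng2 1.06, Klkb1 0.15, Cpb2 0.77, Hrg 0.22, Apoh 0.34 and Hgfac 0.25. In WD AN1284 1 mg/kg/day against WD saline they were F2 -0.42, F10 -0.063, F11 -0.19, Plg -0.005, Proc -0.28, Proz -0.40, Serpinc1 -0.41, Serpind1 -0.056, Serpina10 -0.37, Kng1 -0.24, Kng2 -0.61, Cpb2 -0.31, Hrg -0.16, Apoh -0.20 and Hgfac -0.089. In WD AN1284 5 mg/kg/day against WD saline they were F2 -0.29, F9 -0.28, F10 -0.014, F11 -0.16, Proc -0.23, Proz -0.16, Serpinc1 -0.33, Kng1 -0.20, Klkb1 -0.097, Cpb2 -0.18, Vtn -0.005, Apoh -0.19 and Hgfac -0.062. In WD AN1284 1 mg/kg/day against ND saline they were F2 0.23, F10 0.16, Proz 0.10, Kng1 0.048, Klkb1 0.16, Vtn 0.023, Hrg 0.063, Apoh 0.14 and Hgfac 0.16. In WD AN1284 5 mg/kg/day against ND saline they were F2 0.35, F7 0.21, F10 0.21, F11 0.12, F12 0.35, Proz 0.34, Kng1 0.081, Klkb1 0.057, Hrg 0.24, Apoh 0.15 and Hgfac 0.18. In the WD minus ND effect of 1 mg/kg/day they were F2 -0.84, F9 -0.71, F10 -0.36, Fga -0.56, Fgb -0.45, Fgg -0.38, Plg -0.58, Proc -0.42, Proz -0.71, Serpinc1 -0.60, Serpind1 -0.43, Serpinf2 -0.62, Kng1 -0.38, Klkb1 -0.054, Cpb2 -0.66, Vtn -0.24, Hrg -0.38, Apoh -0.39 and Hgfac -0.45. In the WD minus ND effect of 5 mg/kg/day they were F2 -0.56, F9 -0.41, F10 -0.20, Fga -0.25, Fgb -0.15, Fgg -0.13, Plg -0.27, Proc -0.21, Proz -0.32, Serpinc1 -0.35, Serpind1 -0.41, Serpinf2 -0.34, Kng1 -0.26, Klkb1 -0.29, Cpb2 -0.31, Vtn -0.057, Apoh -0.46 and Hgfac -0.34.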
